A study of Mus musculus with 6 samples.

Results

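SMAD proteins carry the signal of the TGF-β and BMP receptors to the genome, and SKI and SKIL are corepressors that bind SMADs on DNA. Expression of 9 genes of this group was compared between Rnf40+/+ and Rnf40-/- mouse embryonic fibroblasts (MEFs): Smad1, Smad2, Smad3, Smad4, Smad5, Smad6, Smad7, Ski and Skil. They were taken by their gene symbols out of 29955 genes in the deposited table, and each of the 9 was in the table and passed the filter on low reads that left 16378 genes to test. RNA was sequenced from 3 libraries of each genotype, at passage 3. For deletion of Rnf40, which encodes a subunit of the ligase that ubiquitinates histone H2B, the labels give 250 nM 4-hydroxytamoxifen (4-OHT) for 5 days and then 3 days of culture without it. By the study's methods, the cells for deletion were MEFs of embryos homozygous for loxP sites around exons of Rnf40, with a Cre-ERT2 transgene at the ubiquitously expressed Rosa26 locus. Whether the Rnf40+/+ MEFs carried these alleles or received 4-OHT is not given in the sources used here, so that the deletion and the treatment cannot be told apart. The labels do not say whether the libraries of a genotype came from separate embryos, and p values then measure only the spread between these libraries.

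In this pathway, activated receptors phosphorylate receptor SMADs near their carboxy terminus. Smad2 and Smad3 serve mainly the TGF-β and activin receptors and Smad1 and Smad5 mainly the BMP receptors. The common SMAD, Smad4, joins either kind and goes with it into the nucleus. Smad6 and Smad7 are inhibitory SMADs, which lack the phosphorylated tail and block the receptors or the receptor SMADs. Their genes, and Skil, are known targets of the pathway they restrain. In fibroblasts TGF-β is best known for raising the expression of matrix and contractile genes.

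The tail that sets receptor SMADs apart from inhibitory SMADs can be read in the coding sequences. Shown are the last 30 coding bases, stop codon included, of 4 members, on the coding strand and 5′ to 3′, from the GENCODE transcripts of mm9, with the last 4 codons before the stop in capitals. In Smad1, Smad5 and Smad3 these codons hold the serines that the receptors phosphorylate, and Smad6 has other codons there.
Smad1: ccccacaatcctattTCATCCGTGTCTtaa
Smad5: ccgctgaaccccattTCTTCTGTTTCAtag
Smad3: ccgagcatccgctgtTCCAGTGTGTCTtag
Smad6: ctggagatcctactcAACAACCACAGAtag

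Values are given as normalized counts, that is, the reads of a gene over the size factor of its library. The libraries held between 17053436 and 26344170 reads on genes, and no member had fewer than 411 reads in any library, far above the 3 reads taken as the limit of detection (2.40 to 3.58 normalized counts). Rnf40 itself was at 1278, 1195 and 1096 normalized counts in Rnf40+/+ and at 439, 519 and 487 in Rnf40-/- MEFs, counted over the whole gene and not over the deleted exons alone. Rnf40+/+ replicate 3 stood apart from the other Rnf40+/+ libraries (chi-square per gene of 26.6 and 29.5, against 8.19 between replicates 1 and 2, and 5.35 to 13.6 among Rnf40-/- libraries). No library pair agreed within sampling noise. All 11 fibroblast markers were expressed, with a summed level of 411886 to 475398 normalized counts in Rnf40+/+ and 228574 to 243532 in Rnf40-/- libraries, and 9 of the 11 were lower with an adjusted p under 0.05 (limma). Of 10 macrophage markers, led by Lyz2, none was at 0 throughout. Their sum was 5769 and 6158 in Rnf40+/+ replicates 1 and 2, 9857 in replicate 3, and 3699 to 4103 in Rnf40-/- libraries. Of the 9 tested, 2 were higher and 3 lower. The sum of 6 muscle markers was 1375 in Rnf40+/+ replicate 1, mostly from Actc1 with 937, against 128 to 138 in the other Rnf40+/+ libraries and 30.3 to 51.9 in Rnf40-/- libraries, with Myod1 at 0 in each. Des, the 1 muscle marker that was tested, was lower (log2 fold change -2.38, limma adjusted p = 0.000486). The sums were 146 to 282 and 234 to 333 for 6 endothelial markers (of 5 tested, 3 higher and 1 lower). They were 436 to 788 and 578 to 812 for 6 epithelial markers (of 3 tested, 1 higher), and 3291 to 4727 and 2297 to 2665 for 5 neural markers (of 4 tested, 1 lower). These counts stand beside 23.3% of all genes tested called higher and 24.1% called lower. The part of these differences in the results for SMAD and SKI genes was not tested, and in bulk RNA fewer cells of a type and less RNA per cell cannot be told apart.

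Ski, Smad4, Smad6 and Smad3 were higher in Rnf40-/- MEFs, Skil was lower, and Smad1, Smad2, Smad5 and Smad7 did not pass the test. The test was limma on log2(normalized count + 1), with Benjamini-Hochberg adjustment over 16378 genes and a threshold of 0.05. Thus 4 of the 9 genes were called higher, where 23.3% of all genes tested were, and 1 was called lower, where 24.1% were. In total 5 of 9 members were called against 47.4% of all genes, so that the number of called members was near the background. The median log2 fold change was close to 0 over all genes tested (-0.0035). When the thresholds of the study were applied (a mean above 15 normalized counts, p under 0.05, and log2 fold change beyond 1 in either direction), no member was changed, against 4.25% of genes called higher and 5.70% called lower. DESeq2 and edgeR also gave 0 with these thresholds, while 5 members had an unadjusted p under 0.05 in limma. The changes below were thus of moderate size.

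**Figure D1:**
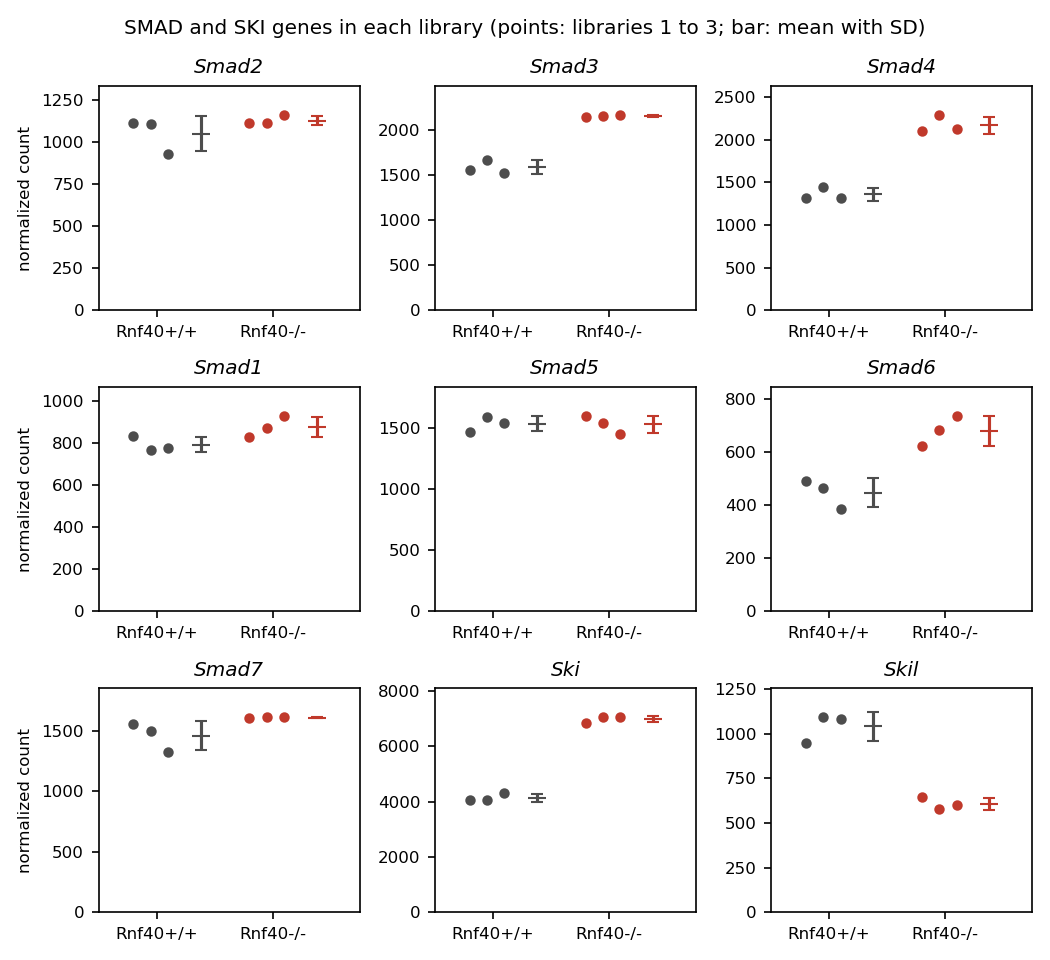
Normalized counts (vertical axis, from 0) of each SMAD and SKI gene in the 3 Rnf40+/+ (grey) and 3 Rnf40-/- (red) libraries, with the mean and SD beside the points. Ski has the widest gap between the genotypes in normalized counts (4135 against 6976 on average), Skil is the gene that is lower in Rnf40-/- without overlap (1041 against 609), and the points overlap for Smad1 and Smad5.

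Of the receptor SMADs of the TGF-β branch, Smad3 rose and Smad2 did not pass the test. Smad3 (ENSMUSG00000032402, minus strand of chromosome 9 of mm9, 63494574 to 63605801) was at 1562, 1674 and 1526 normalized counts in Rnf40+/+ and at 2149, 2153 and 2166 in Rnf40-/- MEFs. Each Rnf40-/- library was above each Rnf40+/+ library, and the spread among the Rnf40-/- libraries was narrow (SD 8.69, against 77.4 in Rnf40+/+). The log2 fold change of Smad3 was 0.44 (standard error, SE, 0.06, limma adjusted p = 0.000146), or 1.36-fold. Smad2 (ENSMUSG00000024563, plus strand of chromosome 18, 76401234 to 76465385) was at 1112, 1108 and 931 normalized counts in Rnf40+/+ and at 1114, 1113 and 1160 in Rnf40-/- MEFs. Replicates 1 and 2 of Rnf40+/+ were thus almost level with the Rnf40-/- libraries and replicate 3 was the low one. The log2 fold change of Smad2 was 0.11 (95% interval -0.071 to 0.29, limma adjusted p = 0.303), and it was 0.024 without Rnf40+/+ replicate 3. Smad3 gave 0.41 without that library and 0.43 without Rnf40+/+ replicate 1, and was called in both cases.

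Of the receptor SMADs of the BMP branch, neither Smad1 nor Smad5 passed the test. Smad1 (ENSMUSG00000031681, minus strand of chromosome 8, 81862294 to 81923417) was at 834, 765 and 777 normalized counts in Rnf40+/+ and at 830, 870 and 926 in Rnf40-/- MEFs. The ranges of Smad1 overlapped, with Rnf40+/+ replicate 1 above the lowest Rnf40-/- library, and the log2 fold change was 0.14 (95% interval -0.024 to 0.31, limma adjusted p = 0.146). Smad5 (ENSMUSG00000021540, plus strand of chromosome 13, 56804371 to 56843738) was at 1464, 1590 and 1540 normalized counts in Rnf40+/+ and at 1592, 1537 and 1450 in Rnf40-/- MEFs. The log2 fold change of Smad5 was -0.0047 with a 95% interval of -0.15 to 0.14 (limma adjusted p = 0.963), which leaves room for a change of about this size in either direction. The sign of the Smad5 value is not determined by these data. Smad9, the other BMP receptor SMAD gene and no member of the group, was scarce and rose, at 93.2, 82.6 and 56.7 normalized counts in Rnf40+/+ and at 125, 137 and 164 in Rnf40-/- MEFs (log2 fold change 0.89, SE 0.20, limma adjusted p = 0.00351).

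The common SMAD rose. Smad4 (ENSMUSG00000024515, minus strand of chromosome 18, 73798663 to 73863434) was at 1320, 1449 and 1314 normalized counts in Rnf40+/+ and at 2108, 2287 and 2121 in Rnf40-/- MEFs. The highest Rnf40+/+ library was well below the lowest Rnf40-/- library. The log2 fold change of Smad4 was 0.67 (SE 0.07, limma adjusted p = 1e-05), or 1.60-fold, and 10.1% of all genes tested had a larger rise. It was 0.65 both without Rnf40+/+ replicate 1 and without Rnf40+/+ replicate 3.

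Of the inhibitory SMADs, Smad6 rose and Smad7 did not pass the test. Smad6, which acts mainly on BMP signalling (ENSMUSG00000036867, minus strand of chromosome 9, 63800953 to 63869866), was at 491, 467 and 387 normalized counts in Rnf40+/+ and at 625, 684 and 736 in Rnf40-/- MEFs. The genotypes did not overlap, although Smad6 was the member with the fewest reads and varied more between libraries than the others that were called. Its log2 fold change was 0.61 (SE 0.11, limma adjusted p = 0.00056), or 1.52-fold, and it was 0.51 without Rnf40+/+ replicate 3 and 0.68 without Rnf40+/+ replicate 1. Smad7, which acts on TGF-β and BMP receptors (ENSMUSG00000025880, plus strand of chromosome 18, 75527183 to 75555589), was at 1557, 1498 and 1326 normalized counts in Rnf40+/+ and at 1608, 1613 and 1614 in Rnf40-/- MEFs. The genotypes did not overlap for Smad7 either, but the step between them was smaller than the range of the Rnf40+/+ libraries. The log2 fold change of Smad7 was 0.15 (95% interval -0.015 to 0.31, limma adjusted p = 0.125), and 0.077 without Rnf40+/+ replicate 3. In all, 7 of 9 members had no overlap between the genotypes, against 56.5% of all genes tested. Of these, 6 were higher (27.8% of all genes) and 1, Skil, was lower (28.7% of all genes). The 6 include Smad2 and Smad7, which did not pass the test. For Smad2 the absence of overlap was a near tie, with the closest libraries at 1111.8 and 1112.5 normalized counts.

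The SKI corepressors moved in opposite directions. Ski (ENSMUSG00000029050, minus strand of chromosome 4, 154528184 to 154596701) was at 4074, 4040 and 4292 normalized counts in Rnf40+/+ and at 6849, 7041 and 7037 in Rnf40-/- MEFs. It was the member with the most reads, and the distance between the genotypes was many times the SD within them (137 and 110). The log2 fold change of Ski was 0.75 (SE 0.06, limma adjusted p = 1.21e-06), or 1.69-fold, and 8.55% of all genes tested had a larger rise. Skil, also known as SnoN (ENSMUSG00000027660, plus strand of chromosome 3, 30993980 to 31021499), was at 948, 1092 and 1083 normalized counts in Rnf40+/+ and at 645, 580 and 601 in Rnf40-/- MEFs. Each Rnf40-/- library was below each Rnf40+/+ library, and 58.5% of the Rnf40+/+ mean was left. Its log2 fold change was -0.77 (SE 0.08, limma adjusted p = 1.52e-05), and 9.88% of all genes tested had a larger fall. Without Rnf40+/+ replicate 1 and without Rnf40+/+ replicate 3 the values were 0.74 and 0.78 for Ski and -0.84 and -0.74 for Skil.

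**Figure D2:**
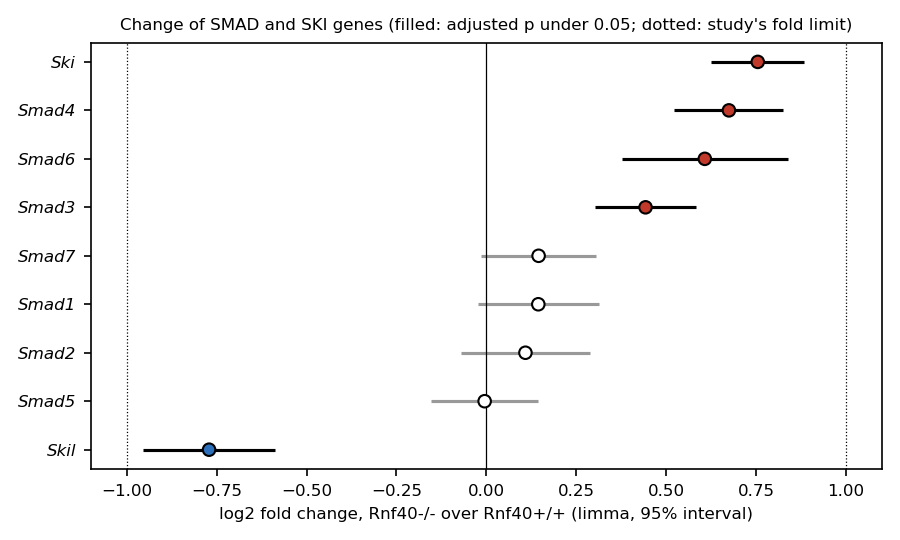
Log2 fold change of each SMAD and SKI gene in Rnf40-/- over Rnf40+/+ MEFs (horizontal axis) with its 95% interval from limma. Filled points have an adjusted p under 0.05 (red higher, blue lower), and dotted lines mark the study's limit of 1 on either side. Values run from -0.77 for Skil to 0.75 for Ski, and no point reaches a dotted line.

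Because members of a pair share a library, their ratio does not depend on how libraries are scaled. The log2 ratio of Skil to Ski was -2.10, -1.89 and -1.99 in Rnf40+/+ libraries and -3.41, -3.60 and -3.55 in Rnf40-/- libraries, a difference of -1.53. Because Ski rose and Skil fell, this difference is by construction larger than the change of either gene alone. The log2 ratio of Smad6 to Smad7 went from -1.71 ± 0.060 to -1.24 ± 0.12 (SD, n = 3 each), a difference of 0.46, and that of Smad3 to Smad2 from 0.60 ± 0.11 to 0.93 ± 0.029 (SD, n = 3 each), a difference of 0.33. None of these 3 ratios overlapped between the genotypes. Single genes had no overlap in 56.5% of all genes tested, and the share over ratios of other gene pairs was not counted. The ratio of Smad1 to Smad5 did overlap (-0.95 ± 0.13 and -0.80 ± 0.15, SD, n = 3 each, a difference of 0.15). An exact two-sided permutation test of 3 libraries against 3 cannot give a p below 0.1, and gave 0.1 for each of the 3 ratios without overlap and 0.3 for Smad1 to Smad5 (0.133 and 0.3 after Benjamini-Hochberg adjustment over 4 pairs). These tests therefore could not reach the threshold.

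**Figure D3:**
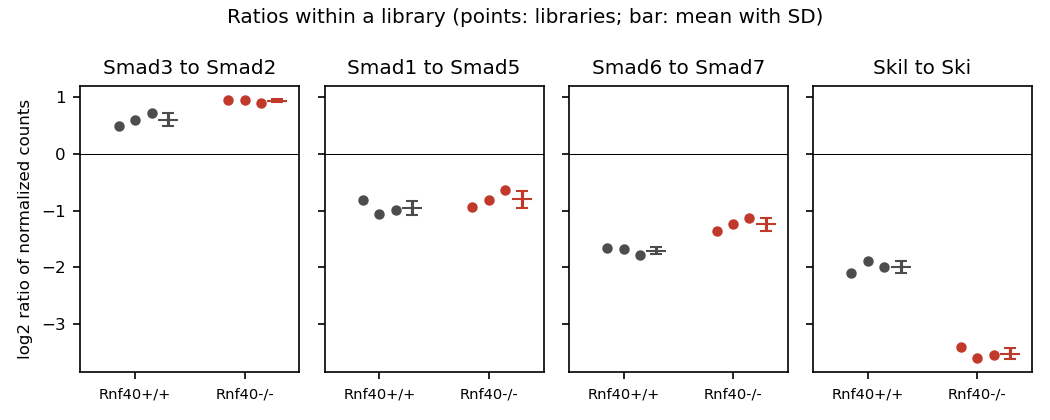
Log2 ratio of normalized counts (vertical axis) for 4 pairs of genes with like roles, in each Rnf40+/+ (grey) and Rnf40-/- (red) library, with mean and SD beside the points. The Skil to Ski ratio differs by -1.53, and the Smad6 to Smad7 and Smad3 to Smad2 ratios are 0.46 and 0.33 higher in Rnf40-/- MEFs, while the points of Smad1 to Smad5 overlap.

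Levels were compared between genes after division by the length of the longest annotated transcript in kilobases. Per kilobase, Ski had the highest level in Rnf40+/+ MEFs (749 ± 24.8 normalized counts per kilobase, SD, n = 3). Smad4 followed with 402 ± 22.6, then Smad2 with 368 ± 36.2, Smad7 with 341 ± 28.0 and Smad3 with 312 ± 15.2 on the same scale, and neighbours in the order from Smad4 to Smad3 overlapped. Smad5 (233 ± 9.61) and Smad1 (210 ± 9.72) were lower and did not overlap with each other, and Skil (155 ± 12.0) and Smad6 (155 ± 18.7) were lowest and overlapped. In Rnf40-/- MEFs the level per kilobase of Ski was 1263 ± 19.9 and that of Smad4 642 ± 29.5. Smad3 (424 ± 1.71) now stood above Smad2 (395 ± 9.49) and Smad7 (377 ± 0.748), without overlap. Smad6 (235 ± 19.2) was level with Smad1 (232 ± 12.8) and Smad5 (232 ± 10.8), and Skil was alone at the bottom with 90.7 ± 4.95. As a share of the summed level per kilobase of the 7 Smad members, a measure chosen after the values were seen, Smad4 held 18.9%, 20.4% and 20.5% in Rnf40+/+ libraries and 25.0%, 26.3% and 24.5% in Rnf40-/- libraries. Smad1 and Smad5 together held 21.9% ± 1.09 and 18.3% ± 0.237, Smad2 and Smad3 33.6% ± 0.586 and 32.3% ± 0.538, and Smad6 and Smad7 24.5% ± 1.25 and 24.1% ± 0.506 (SD, n = 3 each). A share falls when other members rise, and neither Smad1 nor Smad5 itself was called lower. The shares were computed with transcript length only. The order depends on the annotated ends of transcripts. With coding length in place of transcript length, Ski stayed the highest in both genotypes, but Smad3 was in place 2 and Smad4 in place 5 in Rnf40+/+ MEFs.

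**Figure D4:**
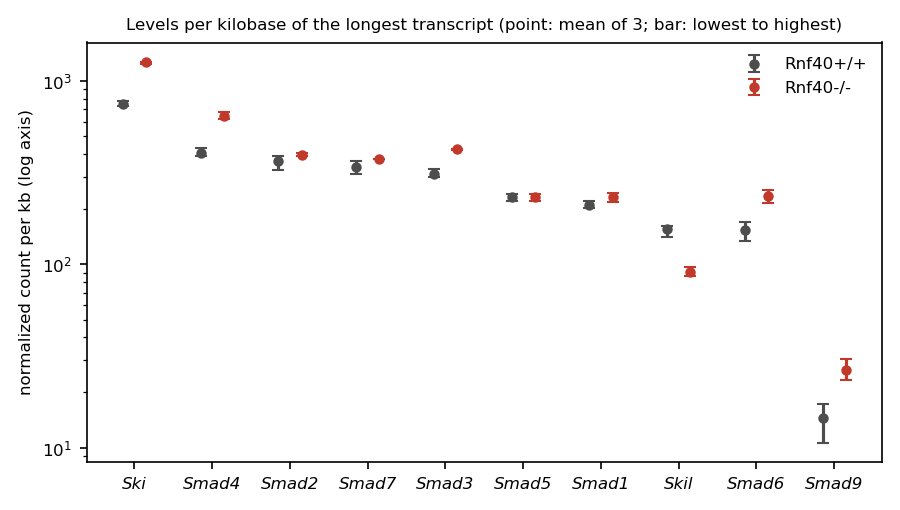
Normalized counts per kilobase of the longest transcript (vertical log axis) in Rnf40+/+ (grey) and Rnf40-/- (red) MEFs, as the mean of 3 libraries with bars from the lowest to the highest library. Ski is highest in both genotypes (749 and 1263), Skil passes from the level of Smad6 (155) to the lowest level of the 9 (90.7), and Smad9, shown for comparison, lies far below with 14.4 and 26.5.

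Promoter sequences of Ski, Smad3 and Smad6 are shown because these genes rose and RefSeq starts were at hand for them. They are the 250 bases before the start, on the gene's strand, 5′ to 3′, from RefSeq on GRCm38.p6, a later build than the one used for the counts. Capitals mark GGCGCC, a GC-rich motif that reads the same on both strands and is bound by SMADs. A second SMAD motif, CAGAC, was searched on both strands. A CAGAC match and a GGCGCC match can share 1 base.
Ski (chr4:155222536-155222785, minus strand): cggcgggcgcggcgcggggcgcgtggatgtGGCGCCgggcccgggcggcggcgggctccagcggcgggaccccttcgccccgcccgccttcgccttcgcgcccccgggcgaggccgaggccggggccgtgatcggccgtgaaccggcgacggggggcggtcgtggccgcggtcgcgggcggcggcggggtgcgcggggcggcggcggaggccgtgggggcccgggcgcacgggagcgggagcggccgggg
Smad3 (chr9:63757995-63758244, minus strand): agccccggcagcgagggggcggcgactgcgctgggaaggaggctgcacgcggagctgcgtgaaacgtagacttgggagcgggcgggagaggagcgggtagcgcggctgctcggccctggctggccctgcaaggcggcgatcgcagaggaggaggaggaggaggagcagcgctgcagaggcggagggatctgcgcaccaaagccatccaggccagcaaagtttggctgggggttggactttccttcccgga
Smad6 (chr9:64022060-64022309, minus strand): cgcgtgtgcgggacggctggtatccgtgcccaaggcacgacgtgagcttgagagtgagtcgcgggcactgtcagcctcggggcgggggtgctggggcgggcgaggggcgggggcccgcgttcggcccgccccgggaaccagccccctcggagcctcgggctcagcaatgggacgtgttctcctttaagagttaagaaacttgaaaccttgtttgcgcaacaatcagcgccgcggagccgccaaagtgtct
GGCGCC was found at 1 place in the Ski window and in 9.59% of 32851 RefSeq windows of the same length. CAGAC was in none of the 3 windows and in 42.2% of all. RefSeq starts were also at hand for Smad1 and Smad5, which did not pass the test. The Smad1 window had neither motif, while a Smad5 window had 1 GGCGCC and another had 1 CAGAC. The Ski window was 87.6% G and C, against 69.2% for Smad3 and 66.8% for Smad6. These are matches of letters and say nothing about binding.

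Smad3 and Smad6, which both rose, are neighbours on chromosome 9 and lie on the same strand with 195151 bases and no annotated gene between them in GENCODE for mm9. Smad4, Smad7 and Smad2 lie in this order on chromosome 18, with 28 annotated genes between Smad4 and Smad7 and 3 between Smad7 and Smad2, and of these 3 only Smad4 was called. The longest transcript of no member shared a run of 50 bases with a protein-coding transcript of another gene, and no annotated gene overlapped an exon of a member, so that the closely related SMAD genes could be told apart by reads of that length. In the study's list of genes with broad H3K4me3, of which the copy used here may be incomplete, 4 members appear: Smad3, Smad6, Smad7 and Ski. Of these, 3 rose (23.3% of all genes tested were called higher) and Smad7 did not pass the test. The share of all genes tested that this list holds was not counted. The study took the genes with the broadest domains for it, and reported that their expression as a group fell significantly after Rnf40 deletion. Smad6 is also in the study's list of genes with decreased H3K27me3. The study reported that many genes of that list rose after Rnf40 deletion. For this list, too, the share of all genes tested was not counted. Histone marks were not analysed here.

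Genes around the SMADs were counted over 7 lists and Smad9, with 95 genes in all, of which 90 were tested. In total 23 were called higher, 34 lower and 33 not called (limma, adjusted p under 0.05), with a median log2 fold change of -0.048. Over all genes tested, 23.3% were called higher and 24.1% lower, and the number of list genes called higher was near that background. These shares are the background for each list below. Tgif1, Pmepa1 and Bambi stand in 2 lists each. The lists were drawn up with results of these data known, so that their counts are a description.

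Among 11 ubiquitin ligases and deubiquitinases of SMADs, 6 were higher and 1 lower (23.3% and 24.1% of all genes tested), with a median log2 fold change of 0.28. Smurf2, a ligase that marks SMADs and receptors for degradation, went from 1746 ± 230 to 2667 ± 117 normalized counts (SD, n = 3 each), or 0.62 on the log2 scale (limma adjusted p = 0.000138), while its relative Smurf1 had a log2 fold change of 0.028 (limma adjusted p = 0.772). The deubiquitinase Usp4 was 1.41-fold higher. Usp11, also a deubiquitinase, fell by 1.82 on the log2 scale, from 158 ± 46.5 to 42.5 ± 4.22 normalized counts (SD, n = 3 each). Of 8 adaptors and phosphatases, 3 were higher and 2 lower, with a median of 0.058. Zfyve9, which presents receptor SMADs to the TGF-β receptor, rose by 0.81 on the log2 scale, and Pmepa1 and Bambi, which restrain the pathway and are among its targets, fell by 0.79 and 0.82.

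Of 15 tested corepressor partners, 2 were higher, 3 lower and 10 were not called, with a median of 0.00089. The histone deacetylase Hdac3 and the corepressor Ctbp1 fell by 0.37 and 0.46 on the log2 scale, and Dach1, a relative of Ski at a low level, was higher, at 94.2 ± 15.7 normalized counts against 46.7 ± 8.33 (SD, n = 3 each). Of 15 tested coactivators and DNA-binding partners, 6 were higher and 6 lower, with a median of -0.11. The acetyltransferase Kat2b and the forkhead factor Foxo1 rose by 0.67 and 0.48, and Runx3 fell by 1.27 on the log2 scale. Of 14 tested TGF-β ligands and receptors, 3 were higher and 4 lower, with a median of -0.083. The ligands Tgfb3 and Tgfb1 fell by 0.97 and 0.47, and the receptor Acvrl1 rose by 0.65. Each gene named here had an adjusted p under 0.05 from limma.

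Genes listed here as targets of the pathway were mostly lower. Of 20 TGF-β targets, 16 were lower (24.1% of all genes tested), 1 higher (23.3%) and 3 were not called, with a median log2 fold change of -0.65, against -0.0035 over all genes tested. The largest falls were those of the smooth muscle genes Cnn1 (-3.99) and Tagln (-3.10) and of the matrix gene Postn (-2.50), and each had an adjusted p under 0.05 from limma. Col1a1, Col1a2 and Col3a1 in this list are also among the fibroblast markers, of which 9 of 11 were lower. Ctgf had 37014 ± 4053 and 35995 ± 816 normalized counts (SD, n = 3 each) and was not called (log2 fold change -0.035, limma adjusted p = 0.772). Junb, encoding an AP-1 subunit, was the target that rose, by 0.67 on the log2 scale. Of 9 BMP targets, 5 were lower and 1 higher, with a median of -0.28. Id4 and Id2, encoding inhibitors of basic helix-loop-helix factors, fell by 0.84 and 0.42, and Bambi by 0.82 as given above. Smad6, Smad7 and Skil, also known targets, were members and stood in neither target list. Of these, Smad6 rose, Smad7 was not called and Skil fell (log2 fold changes 0.61, 0.15 and -0.77).

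**Figure D5:**
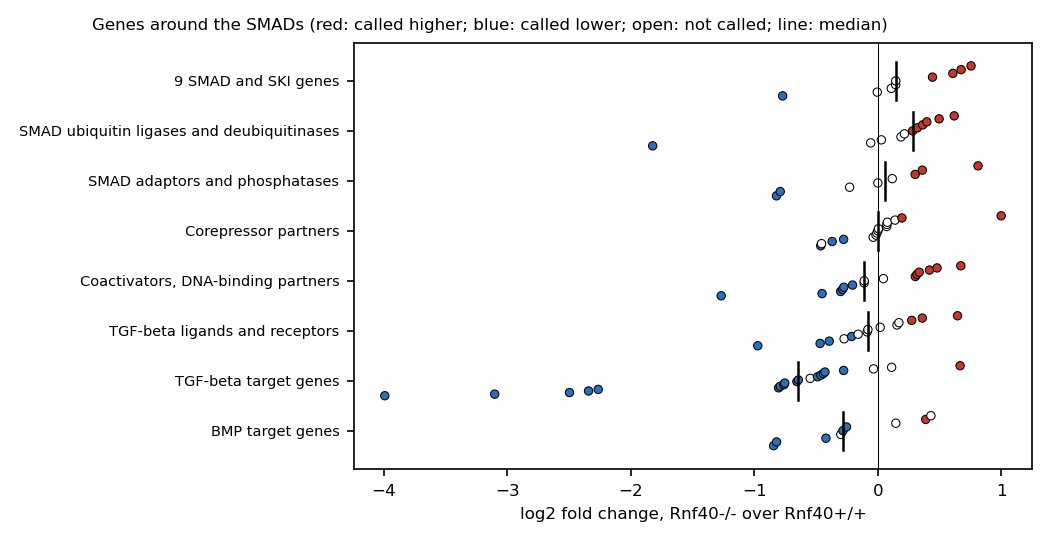
Log2 fold change in Rnf40-/- over Rnf40+/+ MEFs (horizontal axis) of each tested gene, for the 9 SMAD and SKI genes and 7 lists of genes around them. Red and blue points were called higher and lower, open points were not called, and the vertical lines are medians, which run from -0.65 for TGF-β targets to 0.28 for SMAD ubiquitin ligases and deubiquitinases.

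By the root mean square difference of centred log2 values over the 6 libraries, the genes with a pattern most like Ski were AK010870 (0.025), Lyst (0.025) and AK020095 (0.038), and those most like Skil were Plekhg2 (0.039), Spc25 (0.040) and Pecr (0.041). Lyst, encoding a regulator of lysosomal traffic, had a log2 fold change of 0.73, and Plekhg2 had -0.77. This likeness is a description over 6 libraries that fall into 2 genotypes.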

How the data were processed

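RNA-seq libraries of 3 Rnf40+/+ and 3 Rnf40-/- MEF samples were grouped by the labels. The authors aligned the sequences to transcripts of mm9 and deposited, per gene and library, a signal that is the read count divided by a DESeq size factor. Their processing notes name Bowtie2 (version 2.1.0) and DESeq (version 1.14.0), and the counting tool is not given in the sources used here. Division by the smallest step turned 100% of the positive values of each library into whole numbers (tolerance 0.01), the reads, on which edgeR called 3857 genes higher and 3940 lower. Libraries were stranded, but whether counting used strand is not stated.

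The filter on low reads was filterByExpr (edgeR, version 4.0.16), and log2(normalized count + 1) was tested with limma (version 3.58.1; lmFit, and eBayes with a trend), genotype as the only term, with Benjamini-Hochberg adjustment over 16378 genes. The added 1 understates changes of genes with few reads. The fits were also run on simulated counts, with the same dispersion for every gene and larger changes than those of the members. That run does not show how well changes of the members' size are found in these libraries. With 3 libraries against 3, no exact permutation test of a single gene can pass 0.05, so none is given. Alternatives were TMM and upper-quartile scaling, edgeR and DESeq2 (version 1.42.0) on the reads, other filters and pseudocounts, a replicate block, and leaving out each library. The 9 members and the lists were chosen with earlier results of these data known. Named genes are the members, Smad9, Rnf40, and the called list genes with the 3 largest changes per list, and Smurf1, Ctgf, Junb and the marker genes were named after their values were seen. Positions and lengths are from GENCODE for mm9, with R (version 4.3.3) for the fits and scipy (version 1.17.1) under Python (version 3.11.15) for the exact tests.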

Additional observations from a re-analysis of the deposited data

How the results depend on the processing

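Under 15 alternatives each, Ski, Smad3, Smad4 and Smad6 stayed higher and Skil lower with an adjusted p under 0.05, and Smad1, Smad2, Smad5 and Smad7 were called under none. The log2 fold changes ranged over 0.74 to 0.78 for Ski, 0.64 to 0.72 for Smad4, 0.51 to 0.68 for Smad6, 0.41 to 0.48 for Smad3 and -0.84 to -0.73 for Skil. Smad5 changed sign under DESeq2 (8.5e-05) and ranged from -0.037 to 0.032 with each library left out. Genes called in the whole table stayed within 1.5 times the number given, from 3030 to 4021 higher and from 3335 to 4196 lower, and genes of the lists numbered 18 to 25 higher and 29 to 37 lower. Deviations of same-numbered libraries of the genotypes had r = 0.035, 0.0026 and 0.061 across 14912 genes, which are not independent. Libraries with unlike numbers had r from -0.095 to 0.063. Such values cannot settle whether the numbers pair the libraries. With the replicate block 4021 genes were higher and 4196 lower, and 4 members were higher and 1 lower. Pairing left the differences of the log2 ratios as they were (-1.53 for Skil to Ski, 0.46 for Smad6 to Smad7, 0.33 for Smad3 to Smad2 and 0.15 for Smad1 to Smad5), by construction. Levels per kilobase changed with the length used, and the place of Ski at the top in both genotypes and that of Skil at the bottom in Rnf40-/- MEFs were the same for transcript length, coding length and the union of exons, the last an alternative chosen after seeing the data. By the union of exons, Skil was already lowest in Rnf40+/+ MEFs (107 normalized counts per kilobase, against 136 for Smad1 and 143 for Smad6).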
